A study of Mus musculus with 6 samples.

Results

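Serotonin, dopamine, noradrenaline and adrenaline are monoamines made from the amino acids tryptophan and tyrosine. The 10 genes described here, of the 54532 genes in the count table, cover the steps by which these are made, packed, taken back up and broken down, and were chosen by name for these roles: Tph1, Tph2, Ddc, Th, Dbh, Slc18a1, Slc18a2, Slc6a4, Maoa and Maob. Tryptophan hydroxylase (Tph1 outside the brain, Tph2 in neurons) and tyrosine hydroxylase (Th) start the pathways, and Ddc, the aromatic amino acid decarboxylase, finishes serotonin and dopamine. Dbh turns dopamine into noradrenaline. The vesicular transporters Slc18a1 and Slc18a2 load amines into granules, the serotonin transporter Slc6a4 brings serotonin back into the cell, and the monoamine oxidases Maoa and Maob degrade amines at the mitochondrial surface. In mouse skin, mast cells are a known source of serotonin and histamine, sympathetic nerve endings release noradrenaline, and Merkel cells, the touch-sensing neuroendocrine cells of the epidermis, have been linked to monoamine signalling to sensory nerves.

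Gene expression was measured by Smart-seq2, which makes full-length cDNA from small amounts of RNA, in 3 NCAM-enriched and 3 bulk skin libraries of 500 sorted events each. Both groups came from the dissociated dorsal epidermis of male and female C57BL/6 mice aged 4 weeks, with no genetic change or treatment, and both were DAPI-negative, that is, living cells. The NCAM-enriched libraries held cells bound by antibody to PSA-NCAM, a surface protein used to enrich Merkel cells, on magnetic beads and then by cell sorting. Bulk skin cells were not selected for NCAM, so any cell type of the suspension could enter them.

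Library totals were 1343190 to 3798136 counts in the NCAM-enriched group and 3333753 to 4481830 in bulk skin, so that 1 count was 0.216 to 0.773 CPM (the count divided by the TMM-adjusted library size). The summed CPM of 10 Merkel cell markers was 482 to 1674 in the NCAM-enriched libraries and 133 to 186 in bulk skin, and 5 of the 10 rose. The NCAM-enriched libraries stood apart from each other, with Pearson's r of log2 CPM across genes of 0.607 to 0.734 against 0.865 to 0.890 within bulk skin. NCAM-enriched library 1 held mast cell marker RNA at the bulk skin level and library 2 fibroblast marker RNA at 33398 CPM, against 42 CPM in library 3. Markers of Langerhans and myeloid cells (189 to 714 CPM against 8913 to 15685), of T and NK cells (5.85 to 238 against 4117 to 4493) and of red blood cells (3.69 to 25.5 against 747 to 1176) were lower in every NCAM-enriched library, and suprabasal keratinocyte markers were higher (14318 to 37217 against 1567 to 1753).

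None of the 10 genes was called between the groups by edgeR's quasi-likelihood test (adjusted p of at most 0.05 over 13157 genes). Of the 6 genes with enough counts to be tested (Tph1, Th, Slc18a2, Slc6a4, Maoa and Maob), 0 were called higher and 0 lower, and 1, Tph1, had an unadjusted p under 0.05, as did 18.9% of all genes tested. Across all genes tested, edgeR called 1.04% higher and 1.55% lower. DESeq2 called Tph1 lower and none higher, with 5.02% of all genes called higher and 7.05% lower. limma-voom also called Tph1 lower, with 6.45% of all genes called lower. Among the 6, Tph1 alone had groups that did not overlap, with all NCAM-enriched libraries below all bulk skin libraries, a pattern seen in 19.3% of all genes tested. Tph2 had no count in any library, and Ddc, Dbh and Slc18a1 had too few counts to be tested across genes.

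The promoter sequences of Tph1 and Slc18a2 are shown because these genes had the lowest fold changes in the NCAM-enriched group among the 6 tested, and because the levels of Slc18a2 are set below beside those of mast cell markers, which include the GATA-binding factor Gata2. Both are RefSeq sequences of assembly GRCm38.p6, 250 bases before an annotated start, read 5′ to 3′ on the gene's own strand. Capitals mark matches, on either strand, to GATAA or GATAG preceded by A or T, the core that GATA factors bind.
Tph1 (chr7:46672538-46672787, minus strand): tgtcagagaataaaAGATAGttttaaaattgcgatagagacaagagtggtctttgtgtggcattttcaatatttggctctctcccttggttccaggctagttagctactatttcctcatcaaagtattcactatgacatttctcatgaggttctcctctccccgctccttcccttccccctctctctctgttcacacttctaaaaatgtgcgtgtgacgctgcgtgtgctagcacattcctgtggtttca
Slc18a2 (chr19:59260628-59260877, plus strand): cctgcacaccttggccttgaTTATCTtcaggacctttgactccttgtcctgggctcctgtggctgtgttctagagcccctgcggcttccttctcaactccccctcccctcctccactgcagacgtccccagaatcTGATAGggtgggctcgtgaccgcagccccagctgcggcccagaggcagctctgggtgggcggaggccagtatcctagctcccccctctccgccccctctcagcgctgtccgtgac
The Tph1 window held 1 match and the Slc18a2 window 2. At least 1 match was found in 26.5% of 32851 promoter windows and at least 2 in 6.4%. A second Tph1 start (chr7:46667378-46667627) held no match. RefSeq windows were found for 8 of the 10 genes, all but Slc18a1 and Maob, and 5 of their 10 windows held a match. A match is a run of letters and was not tested as a binding site. Gata2 had 96, 17 and 0 CPM in the NCAM-enriched libraries and 12, 33 and 26 CPM in bulk skin. Gata3, another GATA factor, had 989, 484 and 827 CPM in the NCAM-enriched libraries and 313, 417 and 313 CPM in bulk skin. Gata3 was named after its values were seen. Whether either factor acts at these promoters was not tested.

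Serotonin synthesis RNA was detected in bulk skin and not in the NCAM-enriched libraries. Tph1 (chromosome 7, 46644641 to 46672537, minus strand) makes 5-hydroxytryptophan, the first step to serotonin, and had 90, 82 and 12 counts in bulk skin libraries 1, 2 and 3, or 27.9, 17.7 and 3.29 CPM. All 3 NCAM-enriched libraries had 0 counts, although 107 counts would have fallen in them at the bulk skin rate. A floor of 3 counts was taken over the NCAM-enriched group, and the bulk skin count was taken as exact. On that basis Tph1 was at least 35.8-fold lower in the NCAM-enriched group, and at least 16.9-fold lower without NCAM-enriched library 3, the deepest. The edgeR test gave a log2 fold change of -8.63 with an SE of 2.0, which depends on the prior count and is no bound, and an adjusted p of 0.0725. The DESeq2 adjusted p was 0.000934 and the limma-voom adjusted p 0.0204, and over all alternatives the adjusted p ran from 0.000934 to 0.285. Without NCAM-enriched library 2 edgeR called Tph1 lower (adjusted p = 0.0483), and without bulk skin library 1, 2 or 3 its adjusted p was 0.285, 0.262 and 0.242. A count of 0 in every library of a group was found in the NCAM-enriched group for 233 of the genes tested, or 1.77%. In such bulk samples, fewer cells of a type and less RNA per cell cannot be told apart.

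Tph2 (chromosome 10, 115078641 to 115185022, minus strand), the neuronal tryptophan hydroxylase, had 0 counts in all 6 libraries. The floor of 3 counts was 0.448 CPM over the NCAM-enriched group and 0.261 CPM over bulk skin, so a lower level was not detectable at this depth. All tryptophan hydroxylase counts were therefore of Tph1. In bulk skin library 3, with 12 counts, the exact 95% interval of the Tph1 share per kilobase of exon reached down to 56.4%.

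Ddc (chromosome 11, 11814101 to 11898144, minus strand), which converts 5-hydroxytryptophan to serotonin and DOPA to dopamine, had 3, 22 and 16 bulk skin counts and no count in any NCAM-enriched library. The bulk skin levels were 0.931, 4.76 and 4.39 CPM. The groups did not overlap, which in this direction held for 19.3% of all genes tested. The exact two-sided permutation p was 0.1, the smallest that 3 against 3 can give. By the same floor, with the bulk skin count taken as exact, Ddc was at least 7.97-fold lower in the NCAM-enriched group. Without NCAM-enriched library 3 this was 3.78-fold. The order of the bulk skin libraries was not that of Tph1: library 1 was highest in Tph1 and lowest in Ddc.

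Catecholamine synthesis RNA was low throughout. Th (chromosome 7, 142892752 to 142931128, minus strand), which makes DOPA from tyrosine, had 28, 3 and 0 counts in the NCAM-enriched libraries and 45, 50 and 26 in bulk skin. These were 14.9, 2.32 and 0 CPM against 14.0, 10.8 and 7.13 CPM. NCAM-enriched library 1 was above the highest bulk skin library and libraries 2 and 3 were below the lowest, so the groups overlapped. The log2 fold change was -0.89 with an SE of 1.51 (edgeR adjusted p = 0.815), and -3.42 without NCAM-enriched library 1 (edgeR adjusted p = 0.317). Th counts pooled over libraries were 2.28 times as high in bulk skin as in the NCAM-enriched group (95% counting interval 1.52 to 3.49), a ratio that was 16.9 (5.65 to 83.1) without NCAM-enriched library 1 and 1.08 (0.722 to 1.66) without library 3.

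Dbh (chromosome 2, 27165233 to 27183200, plus strand), which makes noradrenaline from dopamine, had 9, 0 and 6 bulk skin counts and none in the NCAM-enriched libraries. Bulk skin library 2 thus had Th and no Dbh, so the Dbh groups overlapped. Between the group means of Dbh the exact two-sided permutation p was 0.4. At a floor of 3 counts, and with the 15 bulk skin counts taken as exact, Dbh was 2.91-fold lower in the NCAM-enriched group. This value leaves out the counting error of the bulk skin counts and is no bound. It was 1.38 with NCAM-enriched library 3 left out, 1.62 with bulk skin library 1 left out and 4.88 with bulk skin library 2 left out. Of the defining markers of noradrenergic neurons, Phox2a was at 0 in all 6 libraries and Hand2 at 0 in the NCAM-enriched group, so bulk skin had Th and Dbh counts without a count of Phox2a.

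Of the vesicular transporters, Slc18a2 was the more abundant. Slc18a2 (chromosome 19, 59260896 to 59296012, plus strand), the transporter of neurons and mast cells, had 29, 103 and 113 counts in bulk skin, or 9.0, 22.3 and 31.0 CPM. In the NCAM-enriched libraries it had 23, 3 and 3 counts, or 12.2, 2.32 and 0.851 CPM. NCAM-enriched library 1 was above bulk skin library 1, and libraries 2 and 3 were below every bulk skin library. The log2 fold change was -2.02 with an SE of 1.2 (edgeR adjusted p = 0.420), and -3.79 without NCAM-enriched library 1 (edgeR adjusted p = 0.147). It shares 2.12% of its exonic bases with the gene Gm29261, and the library type does not mark strand.

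Slc18a1 (chromosome 8, 69037711 to 69089235, minus strand), the transporter known from endocrine cells, had 3, 0 and 2 counts in the NCAM-enriched libraries and 12, 1 and 1 in bulk skin. No difference was detectable at this depth (exact two-sided permutation p = 0.8). The bulk skin to NCAM-enriched ratio of pooled counts was 1.63 (95% counting interval 0.556 to 5.79). It turned to 0.324 (0.0308 to 1.98) without bulk skin library 1, and was 2.93 (0.674 to 26.6) without NCAM-enriched library 1 and 2.54 (0.849 to 9.09) without bulk skin library 2. Per kilobase of exon, Slc18a2 made up 71.4%, 99.1% and 99.2% of the pair in bulk skin libraries 1, 2 and 3, and 88.8% (exact 95% interval 70.5 to 97.6) in NCAM-enriched library 1. The other two NCAM-enriched libraries had under 10 counts of the pair, so the shares were not compared between groups.

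**Figure D1:**
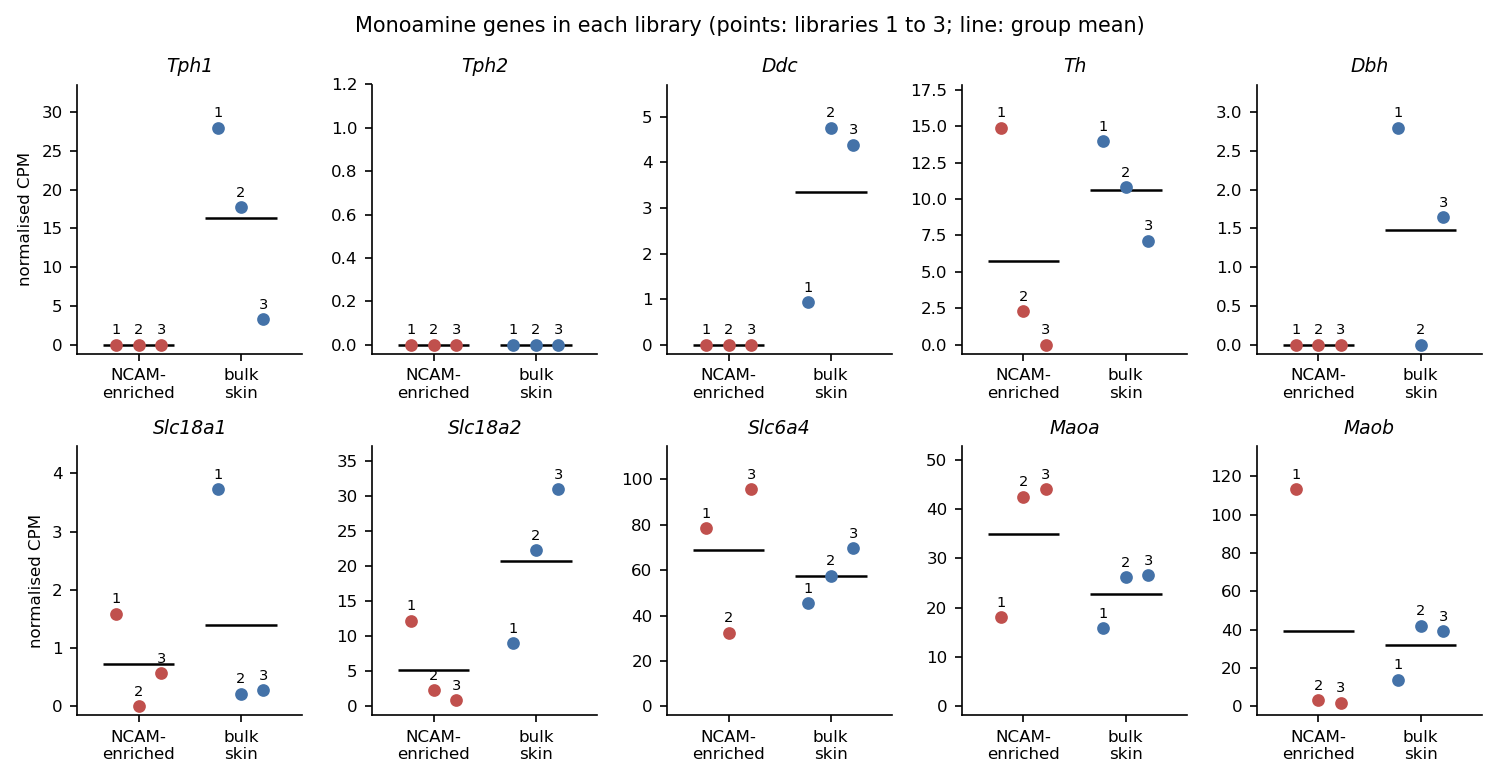
Normalised CPM (y axes, each from 0 with its own scale) of the 10 genes in the 3 NCAM-enriched (red) and 3 bulk skin (blue) libraries, with the library number beside each point and the group mean as a line. Tph1, Ddc and Dbh lie at 0 in the NCAM-enriched group, Tph2 lies at 0 throughout, and Maob is at 113 CPM in NCAM-enriched library 1 and at most 3.09 CPM in the other two.

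Serotonin uptake RNA was present in every library. Slc6a4 (chromosome 11, 76998603 to 77032340, plus strand), the serotonin transporter, had 148, 42 and 337 counts in the NCAM-enriched libraries and 146, 266 and 254 in bulk skin. Its levels were 78.6, 32.5 and 95.6 CPM against 45.3, 57.5 and 69.6 CPM. The NCAM-enriched libraries lay on both sides of the bulk skin range. The means were 68.9 ± 32.7 (SD, n = 3) and 57.5 ± 12.2 CPM, and the log2 fold change was 0.27 with an SE of 0.51 (edgeR adjusted p = 0.843). Without NCAM-enriched library 3 it was -0.10 (edgeR adjusted p = 0.931). Slc6a4 was thus measured in the NCAM-enriched libraries, including library 3, in which Tph1, Ddc, Th and Dbh were all at 0.

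The monoamine oxidases lie 21463 bases apart on the X chromosome, on opposite strands, and share no exonic base. Maoa (16619698 to 16687818, plus strand), which prefers serotonin and noradrenaline as substrates, had 34, 55 and 155 counts in the NCAM-enriched libraries and 51, 121 and 97 in bulk skin, or 18.1, 42.5 and 44.0 CPM against 15.8, 26.2 and 26.6 CPM. NCAM-enriched libraries 2 and 3 were above all bulk skin libraries and library 1 was within their range. The log2 fold change was 0.61 with an SE of 0.67 (edgeR adjusted p = 0.692).

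Maob (16709282 to 16817366, minus strand), which prefers phenylethylamine, differed widely among the NCAM-enriched libraries, at 39.4 ± 63.9 CPM (SD, n = 3) against 31.8 ± 15.5 in bulk skin. It had 213, 4 and 7 counts in NCAM-enriched libraries 1, 2 and 3 and 45, 195 and 143 in those of bulk skin, or 113, 3.09 and 1.99 CPM against 14.0, 42.2 and 39.2 CPM. NCAM-enriched library 1 was above all bulk skin libraries and libraries 2 and 3 were below all of them. The log2 fold change was 0.31 with an SE of 1.31 (edgeR adjusted p = 0.933), and it turned to -3.68 without NCAM-enriched library 1 (edgeR adjusted p = 0.116), to -0.10 without bulk skin library 1, and to -1.93 with limma-voom. DESeq2 returned no p for Maob. No direction was therefore given for it.

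The share of Maoa in the pair, per kilobase of exon, differed among libraries more than either group mean shows. It was 9.65%, 90.2% and 93.7% in NCAM-enriched libraries 1, 2 and 3, with exact 95% intervals of 6.73 to 13.3, 77.3 to 97.2 and 87.5 to 97.4. In bulk skin it was 43.1%, 29.3% and 31.2%, with intervals of 33.2 to 53.7, 24.7 to 34.4 and 25.8 to 37.2. Libraries 2 and 3 of the NCAM-enriched group were mostly Maoa and library 1 mostly Maob. The group means of 64.5 ± 47.5% and 34.6 ± 7.48% (SD, n = 3) did not differ beyond this spread (exact two-sided permutation p = 0.4). Without NCAM-enriched library 1 the difference was 57.4 percentage points, and with it 29.9. Without that library the exact two-sided permutation p was 0.2, the smallest that 2 against 3 libraries can give.

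Summed over 9 genes, mast cell markers had the same order by library as Maob in both groups. Slc18a2 shared this order in the NCAM-enriched group. In bulk skin Slc18a2 was also lowest in library 1 but was highest in library 3. The marker sum was 2046, 20.1 and 7.38 CPM in NCAM-enriched libraries 1, 2 and 3 and 438, 2085 and 1789 CPM in bulk skin. Of the 7 markers tested, 0 were called. Cpa3, the mast cell carboxypeptidase, had 1257, 0 and 0 counts and 480, 2809 and 3307 counts, and Mcpt4, a mast cell chymase, had 1397, 0 and 0 and 363, 1293 and 475. Cma1, another chymase, had 778, 4 and 0 counts against 383, 3061 and 1504. Tpsab1 and Fcer1a were at 0 in all 6 libraries. The defining markers Cpa3 and Mcpt4 were thus at 0 in the libraries with the least Maob and Slc18a2. Mrgprb2, another marker of the list, differed, with 24, 0 and 26 counts against 0, 29 and 39. It made up all of the 7.38 CPM in NCAM-enriched library 3. Hdc, which makes histamine, had 40.4, 3.86 and 7.09 CPM in the NCAM-enriched libraries and 4.04, 32.9 and 26.3 CPM in bulk skin, with the same high libraries. Maoa, Th and Ddc did not follow this order in both groups: Maoa was lowest in NCAM-enriched library 1, Th was highest in bulk skin library 1, and Ddc was at 0 in NCAM-enriched library 1. Nor did Tph1, which was at 0 in all NCAM-enriched libraries and highest in bulk skin library 1, where the marker sum was lowest of that group. Endothelial and mural cell markers had the same order as the mast cell sum in the NCAM-enriched group (776, 104 and 24.1 CPM). In bulk skin they did not (1306, 1091 and 923 CPM). The part of mast cell or of endothelial and mural cell RNA in these results was not tested.

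**Figure D2:**
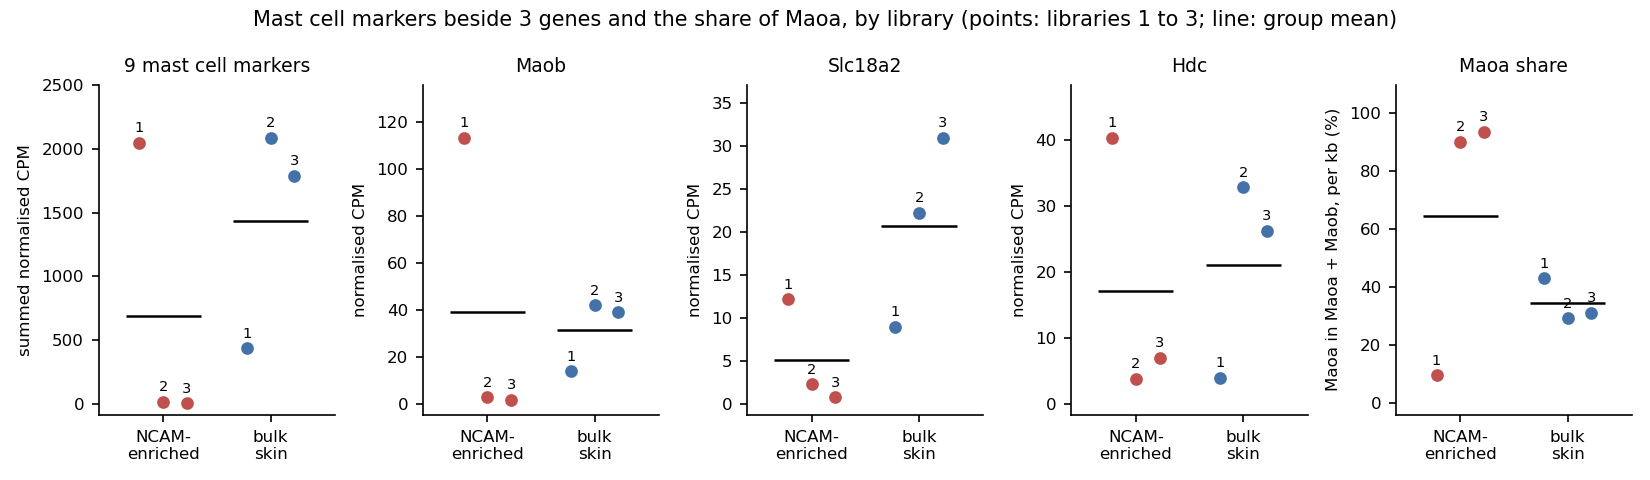
From left, summed normalised CPM of 9 mast cell markers, normalised CPM of Maob, Slc18a2 and Hdc, and the percentage of Maoa in Maoa plus Maob per kilobase, by library (points, numbered 1 to 3) and group (red NCAM-enriched, blue bulk skin, line at the group mean). In the NCAM-enriched group library 1 is highest in the first 4 panels and lowest in the share of Maoa, at 9.65%.

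Per kilobase of exon, which allows levels of different genes to be compared, the order of the group means was the same for the leading genes in both groups. In bulk skin Slc6a4 was at 12.7 ± 2.68 CPM per kilobase (SD, n = 3), Maob at 11.4 ± 5.55, Maoa at 5.49 ± 1.46, Th at 4.50 ± 1.45, Slc18a2 at 3.97 ± 2.12 and Tph1 at 2.64 ± 2.01. Ddc, Dbh and Slc18a1 followed at under 1. In the NCAM-enriched group Slc6a4 was at 15.2 ± 7.22, Maob at 14.1 ± 22.9, Maoa at 8.36 ± 3.49, Th at 2.42 ± 3.39 and Slc18a2 at 0.982 ± 1.18. Each gene's range overlapped that of the next one down in both groups, except Slc18a1 and Tph2 in bulk skin, so neighbours in these orders did not differ beyond their spread.

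The wider pathway, taken as 69 genes in 7 lists by role, held 29 tested genes and 12 with no count. edgeR called 0 higher and 1 lower, Sult1a1, beside 1.04% and 1.55% of all genes. An unadjusted p under 0.05 was found for 6 of the 29, near the 18.9% of all genes. DESeq2 called 0 higher and 2 lower, Sult1a1 and Gch1, beside 5.02% and 7.05% of all genes. Of the 29, 8 had a log2 fold change above 0 and 21 below, with a median of -0.52 against -0.07 over all genes tested.

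Sult1a1, a phenol sulfotransferase, had 260, 176 and 152 counts in bulk skin, or 80.7, 38.0 and 41.7 CPM. In the NCAM-enriched libraries it had 0, 1 and 0 counts. The groups did not overlap, which in this direction held for 19.3% of all genes tested. The pooled counts were 343 times as high in bulk skin (95% counting interval 61.3 to 13561). This ratio rests on 1 NCAM-enriched count: it was 162 (29.0 to 6429) without NCAM-enriched library 3. Without library 2, which held that count, Sult1a1 was at least 92.2-fold lower in the NCAM-enriched group at the floor of 3 counts. The log2 fold change was -7.99 with an SE of 1.28 (edgeR adjusted p = 0.0199), and the call was lost without bulk skin library 1, 2 or 3 (edgeR adjusted p = 0.217, 0.131 and 0.130). Sult1a1 shares 4.05% of its exonic bases with Sgf29.

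All 8 genes of tetrahydrobiopterin, the cofactor of the tryptophan and tyrosine hydroxylases, were tested and 2 were above 0 and 6 below. Gch1, which starts its synthesis, had 27.9, 42.8 and 16.2 CPM in bulk skin and 3.19, 0 and 7.09 CPM in the NCAM-enriched libraries. The groups did not overlap, which in this direction held for 19.3% of all genes tested. The log2 fold change was -3.00 with an SE of 1.22 (edgeR adjusted p = 0.224), and the DESeq2 adjusted p was 0.0439. Qdpr, which recycles the cofactor and was the most abundant of the list, had 67.0, 98.1 and 53.9 CPM in the NCAM-enriched libraries and 70.5, 73.9 and 53.7 CPM in bulk skin (log2 fold change 0.14, edgeR adjusted p = 0.907), and it shares 18.6% of its exonic bases with Gm42413.

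In the other 6 lists, Sult1a1 was the 1 gene that edgeR called. Among other synthesis genes (2 of 7 tested), Moxd1, a relative of Dbh, had 60.6, 66.4 and 320 CPM in the NCAM-enriched libraries and 374, 290 and 385 CPM in the bulk skin libraries. The Moxd1 log2 fold change was -1.22 (edgeR adjusted p = 0.349), and without NCAM-enriched library 3 it was -2.53 and passed (edgeR adjusted p = 0.0158). The phenylethanolamine methyltransferase Pnmt, which makes adrenaline and was named after its values were seen, had 31 counts, all in NCAM-enriched library 1. Among other transporters (3 of 7 tested), Slc6a2, the noradrenaline transporter, had 41.4, 0 and 42.8 CPM in the NCAM-enriched libraries and 41.0, 29.8 and 36.5 CPM in bulk skin, so that only NCAM-enriched library 2 stood apart (log2 fold change -0.34, edgeR adjusted p = 0.918). Without that library it was 0.23.

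Among the other breakdown genes (9 of 11 tested, 2 above 0 and 7 below), Akr1a1, an aldehyde reductase, was the most abundant, at 377, 226 and 515 CPM in the NCAM-enriched libraries and 490, 497 and 368 CPM in bulk skin (log2 fold change -0.28, edgeR adjusted p = 0.779). Of 8 genes that use tryptophan in other ways, 3 were tested, and Wars, the tryptophan tRNA synthetase, had 69.1, 112 and 66.1 CPM against 34.5, 43.9 and 41.4 CPM. The Wars log2 fold change was 1.04 (edgeR adjusted p = 0.251). Receptors were little covered, with 1 of 14 serotonin receptor genes and 3 of 14 catecholamine receptor genes tested. Htr1d had 0, 0 and 2.27 CPM in the NCAM-enriched libraries and 3.73, 7.57 and 9.32 CPM in bulk skin (log2 fold change -2.92, edgeR adjusted p = 0.343).

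**Figure D3:**
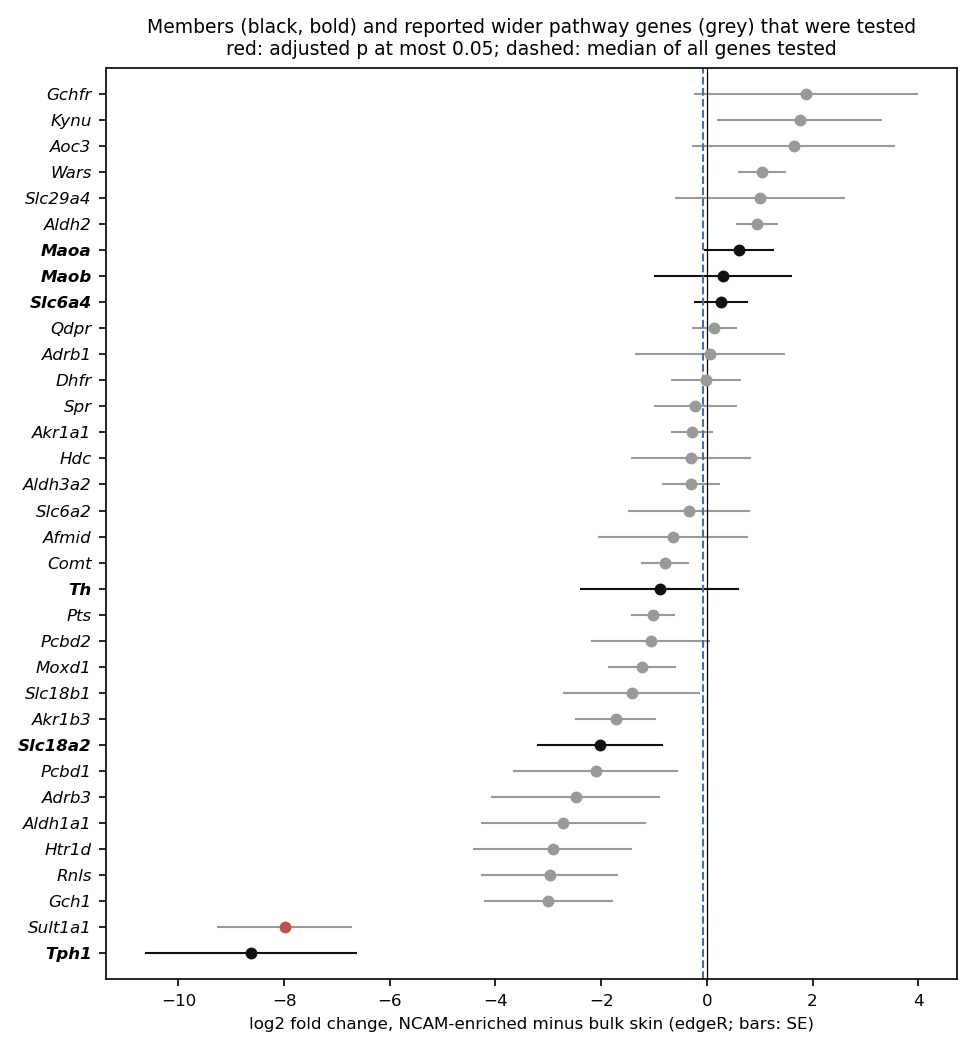
Log2 fold change (x axis, NCAM-enriched minus bulk skin, edgeR, bars show SE) of the 6 monoamine genes tested (black, bold names) and the wider pathway genes tested and reported here (grey, red where called). Sult1a1 is the 1 called gene, Tph1 lies furthest to the left with an adjusted p of 0.0725, and the dashed line marks the median of all genes tested, -0.07.

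Among genes tested, those whose levels followed each member most closely over the 6 libraries were ranked by Pearson's r of log2(CPM + 1), with no test. For Tph1 they were Cfl1 (r = 0.997) and Arid3b (0.995), and for Th Hpgds, the prostaglandin D synthase of blood cells (0.995), and Adamtsl3 (0.991). Hpgds had 234, 36.3 and 7.95 CPM in the NCAM-enriched libraries and 289, 150 and 123 CPM in bulk skin, the same order by library as Th in both groups. For Maob they were Kirrel3 (0.997) and Cyp11a1 (0.991), a steroid side-chain cleaving enzyme, which had 171, 2.32 and 0.568 CPM in the NCAM-enriched libraries and 7.45, 39.6 and 34.3 CPM in bulk skin. For Slc18a2 they were Ptrhd1 (0.993) and Klhdc2 (0.992), for Slc6a4 Ccdc120 (0.999) and Tle2 (0.989), and for Maoa Lrrc47 (0.986) and Gtf2i (0.985). The 6 libraries form 2 groups, so each r also holds the difference between groups, and it rests on 6 points chosen as the highest among all genes.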

How the data were processed

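The authors deposited unnormalised read counts for each gene. They used bbduk for trimming, bbmap for filtering abundant sequences, STAR for alignment (GRCm38) and featureCounts for counting. The release of the annotation and the strand setting were not given in the sources used here. From GENCODE M21 came positions, exonic lengths and shared bases (54495 of the 54532 IDs were found). Promoters came from RefSeq.

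Groups were taken from the labels. The fit across genes used edgeR 4.0.16 under R 4.3.3, with TMM factors, the group-wise filterByExpr, the quasi-likelihood F-test and Benjamini-Hochberg adjustment over 13157 genes. SEs were derived from F (absolute fold change on the log2 scale over its square root). Genes below the filter were compared by exact permutation of group means. Alternatives were DESeq2 1.42.0, limma-voom (limma 3.58.1), other factors and filters, a robust dispersion fit, a block for replicate number and leaving out each library. On data simulated for this comparison (13157 genes) the test recovered 3% of 4-fold and 67% of 16-fold changes.

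Named were the 10 members, wider pathway genes that edgeR or DESeq2 called and the most abundant of each list, the first 3 markers of a list and any at 0 (some items are not reported here), and for members of at least 5 CPM the 2 genes most alike. Lists whose markers bear on no value described are given as sums or left to the closing section. Members and lists were chosen with earlier results of these data known. The sources do not say that replicates came from separate animals, so p-values measure only the spread between libraries. Reads carry no molecular identifiers, so intervals (95%) and floors cover counting error only. Folds given at a floor take the bulk skin count as exact and leave out its counting error.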

Additional observations from a re-analysis of the deposited data

How the results depend on the processing

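Of 14 alternatives, 6 left out a library. Genes called higher went from 137 to 661 with DESeq2, 351 with limma-voom and 769 with a filter of at least 1 count, and genes called lower from 204 to 928, 849 and 741. Leaving out a library gave 0 to 1099 higher and 13 to 733 lower. The 0 came without bulk skin library 1 or 2, with 2115 and 2237 edgeR unadjusted p under 0.05. Members called lower went from 0 to 1 (Tph1) with DESeq2, limma-voom and the filter of at least 1 count, and 0 to 1 leaving out a library. Wider pathway genes called lower went from 1 to 2 with DESeq2 and 2 with limma-voom, and 0 to 3 leaving out a library. Maob turned to -1.93 with limma-voom and ran from -3.68 to 0.83 leaving out a library, Slc6a4 from -0.10 to 0.59, Qdpr from -0.14 to 0.25 and Slc6a2 from -0.81 to 0.23. The cause was not tested. Under limma-voom the median over all genes shifted to -0.37. Tph1, Th, Slc18a2 and Maoa kept their direction in all 14. Shares of Slc18a2 and Tph1 were not recomputed, since some libraries had under 10 counts of the pair.

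Between libraries of the same replicate number, deviations from the group means correlated at 0.0231, 0.000232 and -0.00776. No pairing was seen, but the spread between libraries could hide one, so pairing is not excluded. With the replicate block, 50 genes were called higher and 92 lower, 0 wider pathway genes were called lower (Sult1a1 edgeR adjusted p = 0.0574), Maob was at -2.28 and the median of all genes at -0.36.

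Depth limits Tph2, Ddc, Dbh and Slc18a1, which are described by counts and floors, and with a common biological coefficient of variation of 0.744 a missed threshold does not show equal levels.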

Other observations

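Markers of the remaining cell types were summed in the same way, with no test of their part in any result. Melanocyte markers summed to 46.8, 142 and 15.6 CPM in NCAM-enriched libraries 1, 2 and 3 and to 10.6, 35 and 35.4 CPM in bulk skin, with Tyrp1 at 0 in bulk skin. Mitf alone gave 42.0, 73.4 and 13.3 CPM of these sums and 9.94, 34.6 and 31.8 CPM in bulk skin. Dct gave 64.1 CPM in NCAM-enriched library 2. Of the 9 melanocyte markers 1 was tested. Glial markers summed to 128, 13.9 and 85.7 CPM and to 130, 102 and 149 CPM. Endothelial and mural cell markers summed to 776, 104 and 24.1 CPM and to 1306, 1091 and 923 CPM, with Cdh5 at 0 in the NCAM-enriched group. Platelet markers, from a cell that stores serotonin, summed to 11.2, 44.8 and 1.14 CPM and to 59.6, 48.2 and 34.3 CPM, with Ppbp at 0 in all 6 libraries. Basal keratinocyte markers summed to 8951 to 32176 CPM in the NCAM-enriched group and 14357 to 18279 CPM in bulk skin. None of the melanocyte, glial, vascular or platelet markers tested was called by edgeR, and 1 basal keratinocyte marker was called lower.

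Of the genes nearest to members, Sergef, 4833 bases from Tph1, had 20.2, 0 and 18.7 CPM in the NCAM-enriched libraries and 16.8, 21 and 6.31 CPM in bulk skin. Fignl1, 5138 bases from Ddc, had 2.66, 0 and 1.14 CPM against 29.5, 7.78 and 11.5 CPM. Its groups, like those of Ddc, did not overlap, which in this direction held for 19.3% of all genes tested. Blmh, 11223 bases from Slc6a4, had 316, 47.1 and 228 CPM against 46.3, 90.6 and 72.1 CPM. Htr5b had 13 counts and Htr2b 26 counts in NCAM-enriched library 1 and none in the other two, while Htr2b had 11 counts and Htr5b 0 counts in bulk skin. These genes were named after their values were seen.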
